A study of Mus musculus with 8 samples.

Results

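Irg1 (the older symbol of Acod1), Nos2, Ido1 and Slc7a2, which act in itaconate, arginine and tryptophan metabolism, were followed through the cells of mouse lung tumors. A group of 6 genes was picked by symbol, with their division among neutrophils, macrophages and dendritic cells already known from earlier work on these data. All 6 were found among the 27923 genes listed, and 4 are reported. Their levels by cell class are given as a description, without a test. Tests were made only between regions and tumors within a class.

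The cells came from lung tumors of p53 fl/fl mice, in which Cre removes p53 in lung epithelium. The mice were chimeras made from C57BL/6 embryonic stem cells in albino C57BL/6 blastocysts, and each received Adeno-SPC-Cre, in which the SPC promoter of alveolar type II cells drives Cre, through the trachea at 12 weeks of age. Tumors were taken 16 weeks later, 1 from each of 2 mice (1 male and 1 female), and are called Tumor 1 and Tumor 2. In slices of each tumor, cells at the margin with healthy lung were lit so that the photocaged dye calcein NVOC became fluorescent, and these cells were sorted as the Border, while cells that had not been lit were profiled as the Whole Tumor. Seq-Well, a method that barcodes the RNA of single cells in microwells, gave 1 Border library and 3 Whole Tumor libraries per tumor. The 3 are technical arrays of the same tumor, so the spread between them holds no difference between animals, and sex, mouse and tumor cannot be told apart. Each Border is also a lone library of cells that were lit and sorted for the fluorescent dye. Location, light, sorting and library can therefore not be told apart in any difference between Border and Whole Tumor.

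Most of these genes are known from activated myeloid cells. Irg1 converts cis-aconitate of the mitochondrial citric acid cycle to itaconate, and is best known from macrophages exposed to bacterial products. Itaconate slows succinate dehydrogenase and sets off a response against oxidants, here called the oxidant response. The inducible synthase Nos2 turns arginine into citrulline and nitric oxide. Slc7a2 carries arginine and other cationic amino acids into the cell, and Ido1 opens the ring of tryptophan on the way to kynurenine.

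The genes lie on mouse build GRCm38 as follows. Irg1 spans chr14:103046977-103056573 and Nos2 spans chr11:78920787-78960254, both on the forward strand. Ido1 spans chr8:24584136-24597009 on the reverse strand, and Slc7a2 spans chr8:40862396-40922308 on the forward strand.

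Of the 4 genes, only the start of Irg1 was listed in the RefSeq promoter table (GRCm38.p6). It is shown because the fitted changes of Irg1 lead the results on neutrophil-like cells. The 215 bases on the forward strand at chr14:103046762-103046976 read as follows, with a match to the NF-kB type motif GGAANTTCC in capitals:
Irg1: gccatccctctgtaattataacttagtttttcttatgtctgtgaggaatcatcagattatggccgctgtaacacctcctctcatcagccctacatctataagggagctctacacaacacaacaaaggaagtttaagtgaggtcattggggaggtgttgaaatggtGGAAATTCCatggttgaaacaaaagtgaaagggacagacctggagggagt
The match begins 85 bases before the RefSeq start site, and 0.813% of 32851 promoters held this motif on either strand of the same 250-base window. Of the 6 other motifs searched on both strands, TATAAA, held by 12.4% of promoters, began 28 bases before the start site, outside the bases shown. The letters of GGGNNTTCC (NF-kB type, 4.98% of promoters), TGANTCA (AP-1, 6.75%), TTGCNNAA (C/EBP, 9.56%), TTCNNNGAA (STAT, 7.02%) and the ISRE (2.98%) were not in this window. A match is a description of letters only.

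Of 4343 barcodes, the 3894 with at least 200 genes were kept, with 328 to 620 cells and a median of 675.5 to 2525.5 UMIs per cell in the 8 libraries, which held 405627 to 2029200 UMIs in total. The shallowest was the second Whole Tumor array of Tumor 2. The cells fell into 19 clusters. The neutrophil-like class held 1696 cells in 5 clusters named by their leading gene, and its granulocyte receptor Csf3r was found in 72.2% of cells and S100a9 in 69.3%, against 0.118% for the macrophage gene C1qa and no cell with the T cell gene Cd3e. Other markers went the other way, as the neutrophil gene Ly6g was found in 0 of 1115 of these cells in Tumor 1 and 2 of 581 in Tumor 2, and the macrophage gene Emr1 in 14.6% and 3.44%. Macrophage-like cells were of 3 kinds. C1q+ cells (254) had C1qa in 87.4%, Prg4+ Marco+ cells (118) had Prg4 in 62.7% and Marco in 67.8%, and alveolar macrophage-like cells (117) had Chi3l3 in 90.6% and Lpl in 83.8%. The Ccr2+ monocyte-like class (125 cells) had Ccr2 in 34.4% of cells but Ly6c2 in only 7.2%, and 58% of the 138 Ccr7+ dendritic-like cells had Ccr7.

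The classes were unevenly spread over the libraries. Of the 118 Prg4+ Marco+ cells, 114 came from the Whole Tumor arrays of Tumor 1, and of the 117 alveolar macrophage-like cells, 114 came from Tumor 2. At the Border of Tumor 1 there was 1 macrophage-like cell, and no monocyte-like or dendritic-like cell, beside 456 neutrophil-like cells. Neutrophil-like cells of Tumor 1 lay mainly in the Prss2-led, Ccnf-led and Il23a-led clusters, and those of Tumor 2 mainly in the Retnlg-led cluster, which held 21 of 105 cells at its Border and 328 of 476 in its Whole Tumor arrays. In all 8 libraries the tumor number within the cell names is not that of the sample label. The labels were followed, so the names Tumor 1 and Tumor 2 rest on them. The median share of mitochondrial UMIs over all kept cells was 2.92% at the Border of Tumor 1 and 4.53% to 4.97% in its arrays, and 6.57% at the Border of Tumor 2 and 4.58% to 6.25% in its arrays. Its part in the differences between regions was not tested.

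Irg1 and Slc7a2 divided sharply among the classes. Irg1 gave 7525 UMIs in 1018 cells, and 97.0% of these UMIs were in neutrophil-like cells, which held 40.2% of all UMIs. Slc7a2 lay mostly elsewhere, with 5.19% of its UMIs in neutrophil-like cells. Macrophage-like cells, which held 24.8% of all UMIs, had few UMIs of Irg1, 43 in 19 of 489 cells, and none of the 31 C1q+ cells in the arrays of Tumor 1 had one.

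**Figure D1:**
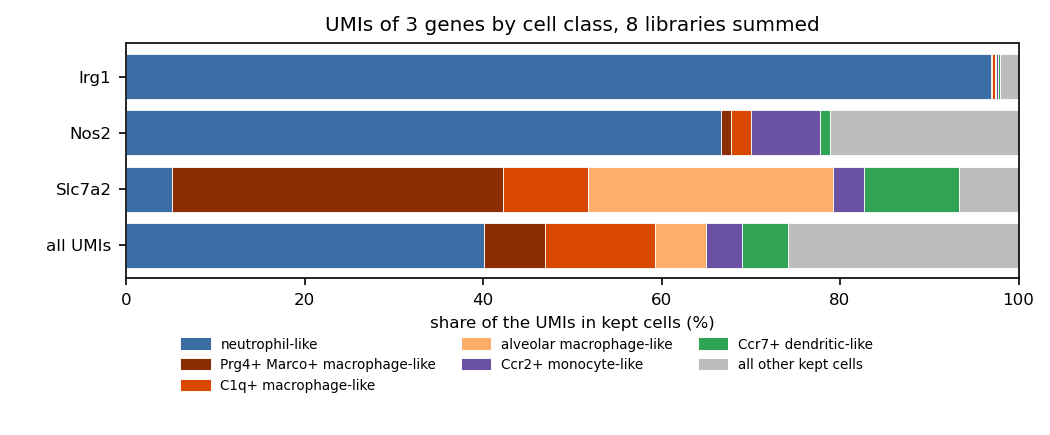
Share of the UMIs (percent, horizontal axis) of Irg1, Nos2 and Slc7a2, and of all UMIs, that fell in each cell class, over all kept cells of the 8 libraries. Irg1 is almost wholly neutrophil-like (97.0%), Nos2 is mostly so but rests on 90 UMIs, and Slc7a2 is spread over Prg4+ Marco+, alveolar, dendritic-like and C1q+ cells.

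Slc7a2, the arginine carrier, gave 1639 UMIs, of which 37.0% were in Prg4+ Marco+ cells and 27.4% in alveolar macrophage-like cells. These pooled shares come from different tumors, as Prg4+ Marco+ cells held 62.7% in Tumor 1 and 0.444% in Tumor 2, and alveolar cells 0.83% and 65.3%. C1q+ cells held 9.58%, as 157 UMIs in 42 cells. A further 10.6% was in dendritic-like cells (6.02% in Tumor 1 and 17.0% in Tumor 2), where 16 cells held all 173 UMIs and the 3 highest cells held 75.7% of them. Fibroblast-like cells had Slc7a2 in 30% of 40 cells. Cells of the B-like class, not a known source of these gene products, give a background level. Of 206 cells with a median of 1767.5 UMIs, none had a UMI of Slc7a2. This allows a detected share of up to 1.46% and does not limit the share that held the RNA. Irg1 was found in 1.94% of the 206 cells, with 30 of its 39 UMIs in 1 cell. None of these cells came from the Border of Tumor 1 and 182 came from Tumor 2, so they give no background for that Border. There the low-UMI cluster with no cell type had Irg1 in 16% of 150 cells at 423 CPM, against 56.9 to 98.1 CPM in the arrays of Tumor 1, and the part of free RNA in the Border values was not tested.

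Nos2 and Ido1 were near the limit of detection. Nos2, the inducible nitric oxide synthase, gave 90 UMIs in 56 cells. Of these UMIs, 60 were in 32 of 1696 neutrophil-like cells, 7 in 6 of 125 monocyte-like cells and 3 in macrophage-like cells. In the arrays of Tumor 1 the mean level was 22.6 CPM in monocyte-like and 16.5 CPM in neutrophil-like cells. In Tumor 2 these classes had 20.2 and 0 CPM at the Border, and means of 14.7 and 9.65 CPM in the arrays. In Tumor 1, neutrophil-like cells held 16 Nos2 UMIs (Border) and 2, 17 and 11 (arrays), while the second tumor had 0 at the Border and 1, 0 and 13. The count of 0 among 105 Border cells of Tumor 2 allows a share of cells with a detected UMI of up to 2.86%, and does not limit the share that express Nos2. The arrays of Tumor 2 had 1.1%, 0% and 3.08%, and the third array held 13 of the 14 UMIs. Ido1 gave 7 UMIs in 7 cells, 4 of them in a low-UMI cluster with no cell type, 2 in neutrophil-like cells and 1 in a dendritic-like cell.

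In neutrophil-like cells, Irg1 differed between Border and Whole Tumor in both tumors, in opposite directions. In Tumor 1 its level was 2105 CPM at the Border (UMIs of the gene per 1000000 UMIs of the class), with an exact Poisson 95% interval of 2020 to 2192 that covers counting error only. The 3 Whole Tumor arrays of Tumor 1 had 309, 379 and 452 CPM, a mean of 380 ± 71.3 (SD, n = 3), so that the Border lay far above all arrays. In Tumor 2 the Border had 2535 CPM (2314 to 2772) and the arrays 4499.6, 4383 and 4563 CPM, a mean of 4482 ± 91.2 (SD, n = 3), so that here the Border lay below all arrays.

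The shares of cells with an Irg1 UMI were less far apart in Tumor 2 than in Tumor 1. In Tumor 1, 61.8% of neutrophil-like cells had one at the Border (95% Clopper-Pearson interval 57.2% to 66.3%) and 24.2%, 26.9% and 27.5% in the arrays. In Tumor 2 the Border had 71.4% (61.8% to 79.8%), within the 83.5%, 68.4% and 82.8% of the arrays. When each cell was thinned to 1000 UMIs, leaving out 59 and 81 shallower cells of Tumor 1 and 17 and 166 of Tumor 2, the shares were 51.4% at the Border against 19.4% in Tumor 1 and 63.6% against 77.7% in Tumor 2.

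**Figure D2:**
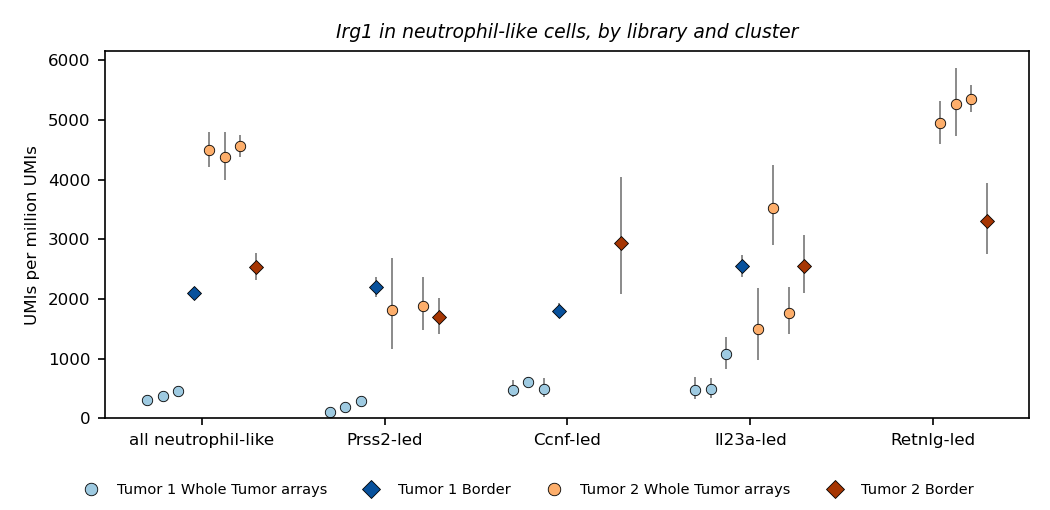
Irg1 in CPM (vertical axis) for all neutrophil-like cells and for 4 of their clusters; each point is a library with at least 5 such cells, diamonds are the Border, circles are Whole Tumor arrays, and bars are exact Poisson 95% intervals. Over all neutrophil-like cells the Border of Tumor 1 lies above its arrays and the Border of Tumor 2 below its arrays, and among the 4 clusters drawn the Retnlg-led arrays of Tumor 2 hold the highest Irg1 levels.

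Sums of UMIs per library were compared by the quasi-likelihood test of edgeR, and p-values were adjusted by Benjamini-Hochberg over 6247 genes. The lone Border library was assumed to vary like the arrays, so the p-values compare these tumors and not conditions across mice. Of the 4 genes, 3 passed the filter on low counts, and Irg1 alone had at least 100 UMIs in the class, the least used here for a fitted change. In Tumor 1 Irg1 rose at the Border by 2.99 (log2, SE 0.24; edgeR adjusted p = 2.62e-15), in a comparison that called 8.56% of all genes tested. Scaling by totals alone, which moves the median of all genes from -0.08 to -0.62, gives 2.45 for Irg1, and the call held.

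In Tumor 2, where the scaling moved the median from 0.05 to 0.45, Irg1 fell at the Border by 1.17 (log2, SE 0.29; edgeR adjusted p = 0.00407), where 7.8% of genes were called. The call depended on the cells included. With cells of at least 500 genes the change of Irg1 was -0.85 (edgeR adjusted p = 0.44). Without the Retnlg-led and Efr3b-led clusters the change of Irg1 was -0.05 (edgeR adjusted p = 0.981), and within the Retnlg-led cluster alone it was -0.69 (edgeR adjusted p = 0.0987). The difference between the tumors in the Border change was -4.16 for Irg1 (SE 0.40; edgeR adjusted p = 2.78e-12), with 9.96% of genes called, and it was called under every alternative run, with -3.26 under scaling by totals. Of all genes tested, 3.14% were called higher and 6.82% lower in this difference.

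In 4 of the 5 clusters of the neutrophil-like class the Border of Tumor 1 held more Irg1 than each array, but in the Retnlg-led cluster this rests on 17 UMIs in 4 Border cells and 0 in 4 array cells, too few to read. In the Prss2-led cluster, of which 50.8% of cells had Siglec5 (the mouse gene of Siglec-F), Irg1 was at 2195 CPM at the Border and 110, 191 and 286 CPM in the arrays. In the Ccnf-led cluster it was at 1798 CPM against 476, 608 and 495 CPM, and in the Il23a-led cluster at 2548 CPM against 476, 492 and 1075 CPM. In the small Efr3b-led cluster, by contrast, the 16 cells at the Border of Tumor 1 were at 1530 CPM, within the 1138 to 3948 CPM of its arrays, which held 7 such cells in all and had a mean of 2561 CPM.

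In Tumor 2 the Retnlg-led cluster, in which 95% of cells had S100a9 and 61.6% Retnlg, had 3310 CPM of Irg1 in the 21 cells of the Border (2757 to 3941) and 4949.6, 5273 and 5352 CPM in the arrays. The small Efr3b-led cluster had 3864 CPM at the Border, within the 5532, 2461 and 2835 CPM of its arrays. The Il23a-led cluster of Tumor 2 had 2549 CPM of Irg1 at the Border, within the 1491, 3529 and 1772 CPM of its arrays. The Prss2-led cluster of Tumor 2 had 1694 CPM in 32 Border cells, against 1810, 326 and 1889.5 CPM in arrays of 4 to 11 cells.

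Between the Whole Tumor arrays, which also serve as the baseline of the Border changes above, neutrophil-like cells of Tumor 2 had more Irg1 than those of Tumor 1. It was higher by 4.35 (log2, SE 0.22; edgeR adjusted p = 1.34e-26), with no overlap between the 3 arrays of each tumor. In this comparison 47.1% of genes were called and the median of all genes was -0.32, which scaling by totals moved to -1.18, leaving Irg1 at 3.53. Without the Retnlg-led and Efr3b-led clusters Irg1 was 2.87 higher, still called.

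The carrier Slc7a2 had 85 UMIs in the whole neutrophil-like class. It was called lower in Tumor 2 than in Tumor 1 between the Whole Tumor arrays, from 3 UMIs against 58, and is given as counts only.

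**Figure D3:**
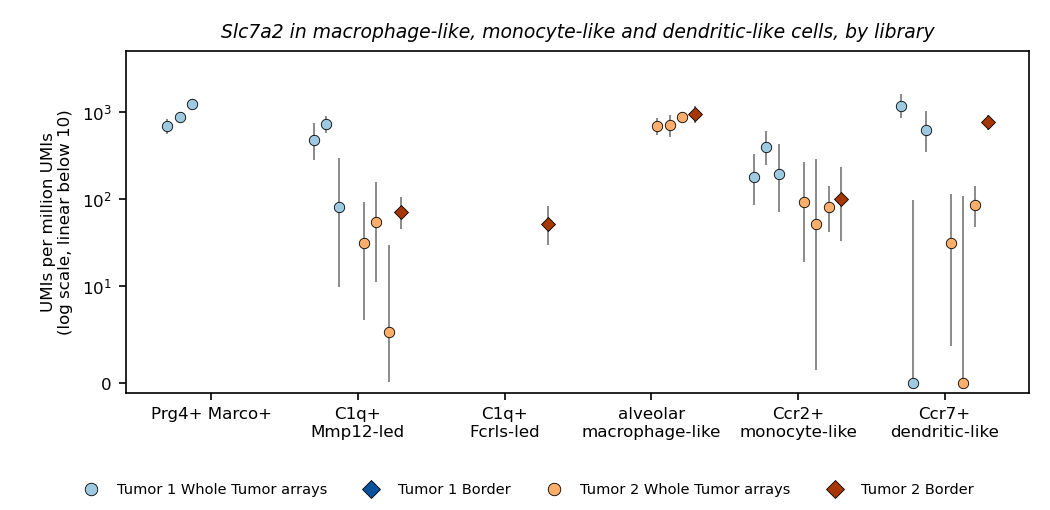
Slc7a2 in CPM on a logarithmic axis that is linear below 10, for macrophage-like, monocyte-like and dendritic-like cells; each point is a library with at least 5 such cells, diamonds are the Border, circles Whole Tumor arrays, and bars exact Poisson 95% intervals. No Border library of Tumor 1 had enough of these cells to be drawn; the Prg4+ Marco+ points of Tumor 1 (687 to 1230.2) and the alveolar points of Tumor 2 (686 to 949) lie close together, while the Prg4+ Marco+ cells and the alveolar cells were each found nearly in 1 tumor alone.

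Among macrophage-like cells, Slc7a2 was highest in the Prg4+ Marco+ and alveolar kinds. Prg4+ Marco+ cells of Tumor 1 had 687, 880.5 and 1230.2 CPM, and alveolar macrophage-like cells of Tumor 2 had 949 CPM at the Border and 686, 701 and 878 CPM in the arrays, with 70.1% of alveolar macrophage-like cells positive. C1q+ cells had 476, 723 and 81.7 CPM in the arrays of Tumor 1, and 61.8 CPM at the Border and 31.5, 53.1 and 10.1 CPM in the arrays of Tumor 2. In monocyte-like cells the arrays of Tumor 1 had 177, 397 and 194 CPM, above the 52.1 to 101 CPM of the 4 libraries of Tumor 2. Dendritic-like cells of Tumor 2 had 759.5 CPM at the Border, where 21.6% of 37 cells had a UMI, above the 0 to 85.8 CPM of its arrays, where at most 12.1% of cells had one, but 1 cell held 78 of the 98 UMIs at the Border. Those of Tumor 1 ranged from 0 to 1177 CPM over arrays of 7 to 11 cells.

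Between regions, only Tumor 2 had enough macrophage-like cells for a test, 139 at the Border and 52, 66 and 83 in the arrays, all kinds summed. Of the 4 genes, 2 passed the filter in this class, Irg1 with 43 UMIs, given as counts only, and Slc7a2. The comparison called 3.34% of 5303 genes, 1.81% higher and 1.53% lower. The other C1q+ cluster beside the Mmp12-led one, led by Fcrls, held 49 of its 52 cells at the Border of Tumor 2, and a cluster found mostly in 1 library may be a feature of that library.

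Slc7a2 in these cells was at 163 CPM at the Border and 379, 414 and 506 CPM in the arrays, below all arrays. It fell by 1.47 (log2, SE 0.32; edgeR adjusted p = 0.00878). Alveolar macrophage-like cells, the kind with most Slc7a2 in this tumor, made up 16 of the 139 Border cells and 26, 31 and 41 of the cells in the arrays, and within that kind the Border was above the arrays. C1q+ cells, 122 of the Border cells, were above all arrays too, so that neither kind was lower at the Border, without a test, and the part of the make-up of the class in the change was not tested. Without the Fcrls-led cluster the change was -0.91 (edgeR adjusted p = 0.207).

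Between the Whole Tumor arrays of the tumors, Slc7a2 in macrophage-like cells was at 644, 841 and 1092 CPM in Tumor 1 and at 379, 414 and 506 CPM in Tumor 2, without overlap. The change was -0.81 (log2, SE 0.21; edgeR adjusted p = 0.00593), in a comparison that called 24% of genes. The Prg4+ Marco+ kind was nearly all in Tumor 1 and the alveolar kind nearly all in Tumor 2, so their part in this change cannot be told apart from a change within cells. The call was lost under 3 of 16 alternatives, without the third array of Tumor 1 (-0.64; edgeR adjusted p = 0.052), without the first array of Tumor 2 (edgeR adjusted p = 0.0636) and at clustering resolution 0.5 (-0.50; edgeR adjusted p = 0.122). At that resolution the class held other cells, as a cluster with Mmp12 among its leading genes was unnamed and left out.

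**Figure D4:**
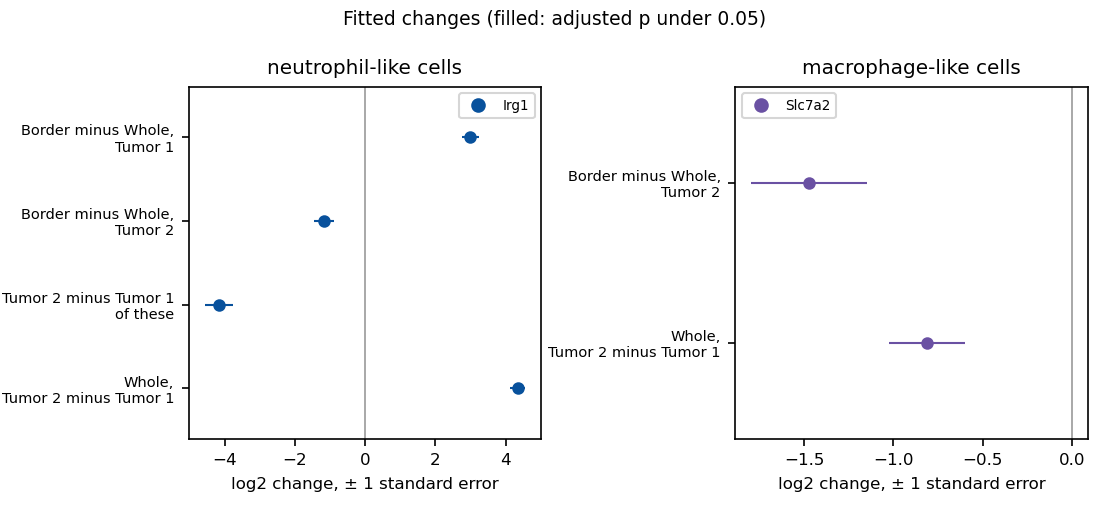
Fitted log2 changes (horizontal axis, points with 1 standard error) of Irg1 in neutrophil-like cells and of Slc7a2 in macrophage-like cells; filled points have an edgeR adjusted p under 0.05. Irg1 rose at the Border of Tumor 1 (2.99) and fell at that of Tumor 2, and in macrophage-like cells of Tumor 2 Slc7a2 fell by 1.47 at the Border, a sum over kinds of cell whose make-up differed.

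The wider pathways were read from lists chosen with earlier results of these data known. In neutrophil-like cells at the Border of Tumor 1, 6 of 11 genes of a list on itaconate and the oxidant response rose and none fell, with a list median of 1.00 against -0.08 over all genes. Nfkbiz, an NF-kB cofactor whose induction itaconate can restrain (log2 change 2.996), and the stress factor Atf3 (2.13) rose under both scalings. The cystine carrier Slc7a11 (1.02), the sulfiredoxin Srxn1 (1.02), heme oxygenase Hmox1 (0.98) and the thioredoxin reductase Txnrd1 (0.86) were called with TMM scaling but not with scaling by totals. With TMM scaling 6.8% of all genes were called higher and 1.76% lower. With scaling by totals the list had 2 genes higher and 1 lower, and 3.07% of all genes were called higher and 17.5% lower. Without the Retnlg-led and Efr3b-led clusters 4 of 10 genes were higher, with Hmox1 at 0.89 (edgeR adjusted p = 0.0575) and Txnrd1 at 0.82 (edgeR adjusted p = 0.0987), where 5.6% of all genes were called higher and 1.43% lower.

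Of 15 tested signals upstream of these genes, 4 rose at the Border of Tumor 1, the NF-kB inhibitor Nfkbia (2.33), the receptor Tlr2 (1.46), and the transcription factors Irf1 (0.92) and Cebpb (0.84). With scaling by totals Irf1 and Cebpb were at 0.38 and 0.30 without a call, and the list had 2 genes higher and 3 lower, the latter share near the 17.5% of all genes called lower. Without the Retnlg-led and Efr3b-led clusters Irf1 (0.86; edgeR adjusted p = 0.0664) and Cebpb (0.71; edgeR adjusted p = 0.175) were not called either. Of 8 genes of the ornithine and polyamine path, Smox (1.95) and Sat1 (1.34), which break down polyamines, rose and none fell, under both scalings. Of all genes, 6.8% were called higher with TMM scaling and 3.07% with scaling by totals.

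Of 5 genes of arginine uptake and use tested, 3 rose in Tumor 1, namely Pts (1.32) and Gch1 (1.28), which make the tetrahydrobiopterin cofactor of nitric oxide synthase, and the amino acid carrier Slc38a2 (0.97). None of these was called with scaling by totals, and Gch1 was not called without those 2 clusters (1.141; edgeR adjusted p = 0.178). Of 8 citric acid cycle genes none was called, but 3 were lower with scaling by totals, against that same 17.5% of all genes. None of the 3 kynurenine genes tested was called. In the main fit 6.8% of all genes were called higher and 1.76% lower.

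At the Border of Tumor 2, 3 list genes of neutrophil-like cells rose and 9 fell. Of the oxidant response genes, Hmox1 (-1.39) and its regulator Nfe2l2 (-1.20) fell and none rose, and 5 of the 15 signals fell, among them Irf1 (-1.57), Hif1a (-1.13) and Cebpb (-0.91), while Nfkb1 rose (1.17). Odc1, which makes putrescine from ornithine, rose (1.68), Smox fell (-1.01), Sdha of succinate dehydrogenase fell (-2.47) and the amino acid carrier Slc7a5, which takes up tryptophan, rose (2.41). None of the 5 arginine genes tested was called, and the background was 3.19% called higher and 4.61% lower. Without the Retnlg-led and Efr3b-led clusters no gene of any list was called at this Border in edgeR, where 0.188% of all genes were called higher and 0.282% lower. Several changes were about as large, with Slc7a5 at 3.17, Odc1 at 1.91, Nfkb1 at 1.28, Hmox1 at -1.36 and Irf1 at -1.33. Those of Sdha (-1.39), Nfe2l2 (-0.67), Smox (-0.38), Hif1a (-0.22) and Cebpb (-0.15) were smaller. With scaling by totals Sdha (-2.07; edgeR adjusted p = 0.0519) and Smox (-0.64; edgeR adjusted p = 0.0926) lost their calls, 1 citric acid cycle gene was called higher and Hif1a was the 1 signal still lower, where 8.61% of all genes were called higher and 2.8% lower.

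The Border change differed between the tumors for several of these genes. The difference was called lower in Tumor 2 for Nfkbiz (-3.82), Nfkbia (-3.10), Smox (-2.96), Atf3 (-2.51), Hmox1 (-2.37) and Tlr2 (-2.34), and each of these calls held with scaling by totals and without the Retnlg-led and Efr3b-led clusters. The call of Irf1 held in both too. Without these clusters Nfe2l2 (-1.31; edgeR adjusted p = 0.189) and Sat1 (-1.64; edgeR adjusted p = 0.0608) lost their calls, and Stat6, Cebpb and Hif1a lost theirs in both alternatives. Of all genes, 3.14% were called higher and 6.82% lower in the main fit, and 0.507% and 1.82% without these clusters. Odc1 differed the other way (1.62), and without these clusters its difference was 1.91 without a call (edgeR adjusted p = 0.157).

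Between the Whole Tumor arrays, neutrophil-like cells of Tumor 2 had 11 of 15 signals higher and none lower, led by Tlr2 (4.23) and Cebpb (2.64), and 7 of 11 oxidant response genes higher and 1, Keap1, lower (-2.11). The background there was 22.4% higher and 24.7% lower. With scaling by totals 8 signals were higher and 4 lower, 5 oxidant response genes were higher and 3 lower, and Nfkb1 and Ifngr2, named after their values were seen, changed sign, where 11.2% of all genes were called higher and 57.8% lower. Without the Retnlg-led and Efr3b-led clusters 4 signals and 5 oxidant response genes were higher and none lower, where 5.73% of all genes were called higher and 4.11% lower. Of the citric acid cycle genes, 4 of 8 were lower, among them citrate synthase Cs (-1.82), and 7 of 8 with scaling by totals. No call was left among the 6 tested without those clusters.

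In macrophage-like cells at the Border of Tumor 2, Gatm, which uses arginine to make a creatine precursor, rose (1.26), as did Nfkbia (1.11). No other list gene was called. These were 1 of 7 arginine genes and 1 of 16 signals tested, where 1.81% of all genes were called higher and 1.53% lower. Over all lists the share called was near that of all genes. Neither Gatm nor Nfkbia was called without the Fcrls-led cluster, with changes of 0.95 and 0.93 and adjusted p = 0.163 and 0.0676 in edgeR. In that fit 1 of 10 oxidant response genes was called higher, where 0.492% of all genes were called higher and 0.567% lower. Between the Whole Tumor arrays of the tumors, Gatm (2.02) and Qdpr, which recycles biopterin (2.95), were higher in Tumor 2 and the arginine carrier Slc7a1 was lower (-1.37). Odc1 (1.69) and Sat1 (1.38) were higher, and 5 of 10 oxidant response genes were lower, among them Gclm of glutathione synthesis (-2.16) and Slc7a11 (-1.36), while Atf3 was higher (3.34). The background was 13.9% higher and 10.1% lower. As for Slc7a2, the Prg4+ Marco+ kind was nearly all in Tumor 1 and the alveolar kind nearly all in Tumor 2. The part of these kinds in the changes between the arrays cannot be told apart from a change within cells.

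The genes whose level followed Irg1 and Slc7a2 most closely were found by Pearson's r of log2 levels over 28 pairs of class and group, as a description among 8262 genes, with pairs that share libraries. For Irg1 they were Il1f9 (0.92), Hdc (0.90), Gm15832 (0.89), Cxcr2 (0.88) and Sh2d3c (0.88). Those of Slc7a2 were Anpep (0.88), Spire1 (0.82), Lrp1 (0.80), Sh3pxd2b (0.79) and Dab2 (0.78).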

How the data were processed

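Single-cell RNA of 2 mouse lung tumors was read by Seq-Well, in 1 Border and 3 Whole Tumor libraries per tumor. Per the labels and the study's methods, the authors aligned reads to mm10 (STAR 2.5.2b, bcl2fastq 2.17.1.14, Drop-seq pipeline), collapsed UMIs and deposited raw UMI counts per gene and barcode. Whether strand was used in counting is not given in the sources used here. The 4343 barcodes are as many cells as the study's text gives for these tumors, under the same labels. Those with at least 200 genes were kept; 57 doublets (1.46%, Scrublet in scanpy 1.11.5) and 60 barcodes like the primer or a homopolymer were kept, and left out in alternatives. Of 10 barcode sequences found in more than 1 library, none lacked such a match.

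Counts were scaled to 10000 per cell and clustered with Seurat 5.3.0 in R 4.3.3 (1918 variable genes, 30 components, 10 neighbours, resolution 1). The members, the pathway genes and 579 genes the study lists as changed at a Border were left out of the variable genes. Clusters were named from marker lists as "-like". The members and all lists were chosen with earlier results of these data known. Levels are CPM of summed counts with exact Poisson 95% intervals, and shares of cells in single libraries have exact Clopper-Pearson intervals; both cover counting error only. The limit that a count of 0 allows is 3 counts or cells, and it limits detection only.

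Sums per library with at least 10 cells of a class were tested with edgeR 4.0.16 (TMM, quasi-likelihood, Benjamini-Hochberg adjusted p under 0.05) with 1 mean per tumor and region. The residual spread comes from the technical arrays only. The study's own test takes cells as replicates and was not used. The procedure was tested on simulated counts in which 200 genes changed 4-fold. In neutrophil-like cells it recovered 78% of them at the Border of Tumor 1 and 45.5% at that of Tumor 2. For the difference between the tumors it recovered 33.5%, and between the Whole Tumor arrays 76%. In macrophage-like cells it recovered 75.5% at the Border of Tumor 2 and 84.5% between the arrays. A gene that was not called may therefore still have changed. The text names 4 of the 6 members, up to 8 genes of each list with the smallest adjusted p in each comparison (not all of them are printed), and the 5 genes most like each member with at least 100 UMIs. Alternatives were DESeq2 1.42.0, other filters, clusterings and scalings, and each array left out. The remaining members, 1 allele of the mice and 1 gene of a list are not reported here. Images and flow cytometry were not used here.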

Additional observations from a re-analysis of the deposited data

Results flagged for a closer look

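The change of Irg1 from Whole Tumor to Border in neutrophil-like cells differed between the tumors by -4.16 (log2, Tumor 2 minus Tumor 1; edgeR adjusted p = 2.78e-12). Each tumor has 1 Border library, and the Retnlg-led cluster, nearly absent from Tumor 1, moved with this result. That cluster was not left out alone; without it and the Efr3b-led cluster together the difference was still called.

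The barcodes with fewer than 200 genes, which entered no comparison, held 82 UMIs of Irg1 and 9 of Slc7a2, above the 3 counts that a count of 0 allows.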

How the results depend on the processing

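No change of Irg1 in neutrophil-like cells or of Slc7a2 in macrophage-like cells reversed under any alternative. The calls of Irg1 in Tumor 1, between the tumors and between the Whole Tumor arrays held under every alternative run. In Tumor 2 its call was also lost with cells of at least 500 genes (edgeR adjusted p = 0.44). That filter left 14 of 158 neutrophil-like cells in the second array of Tumor 2, and the cause was not tested. Alternatives without barcodes like the primer, without the clusters named, within the Retnlg-led cluster alone and with scaling by totals were chosen after seeing the data.

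Counts of genes called in neutrophil-like cells moved from 535 in Tumor 1 to 272 with DESeq2, 327 with cells of at least 500 genes and 1286 with scaling by totals (192 higher and 1094 lower, against 425 and 110). In Tumor 2 they moved from 487 to 268 without a filter, 265 with 500 genes (169 higher and 96 lower), 25 without the Retnlg-led and Efr3b-led clusters and 149 in the Retnlg-led cluster alone; scaling by totals gave 538 higher and 175 lower, against 199 and 288. For the difference, 622 moved to 327 (DESeq2), 404 (no filter), 322 (500 genes, 177 higher and 145 lower), 1232 (scaling by totals, 1059 higher and 173 lower against 196 and 426) and 124 (without these clusters). For the Whole Tumor arrays, 2944 moved to 524 without these clusters, cells of at least 500 genes gave 861 higher and 2183 lower, and scaling by totals gave 700 higher and 3611 lower against 1398 and 1546. In macrophage-like cells of Tumor 2, 177 moved to 60 (DESeq2), 384 (resolution 0.5) and 56 (without the Fcrls-led cluster), and for the arrays 1273 moved to 819 (DESeq2), with 583 higher and 713 lower under scaling by totals against 735 and 538.

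Leaving out each array gave 363 to 627 called genes in Tumor 1, 329 to 572 in Tumor 2, 463 to 739 for the difference and 1913 to 2848 for the arrays in neutrophil-like cells, and 105 to 200 and 921 to 1190 in macrophage-like cells. The lowest counts 1913 and 105 were without the third array of Tumor 2. Without the third array of Tumor 1 the change of Slc7a2 in macrophage-like cells was -0.64 (edgeR adjusted p = 0.052). The array number did not pair the samples, as their deviations correlated by -0.02 to 0.02. With the replicate block, fitted on the Whole Tumor arrays only, 2356 of 4743 and 998 of 3743 genes tested were called between the arrays. The main fit, which held the Border libraries too, called 2944 of 6247 and 1273 of 5303. The block, the libraries and the genes tested changed at once, so the move in counts is not put down to the block. No call of Irg1 or Slc7a2 changed. At resolution 0.5 the Slc7a2 level of Prg4+ Marco+ cells was 636 CPM, but that cluster was another set of cells. It held 240 cells, against 118, and Vcan and Ccl24 were among its leading genes. A Ccl22-led cluster of 343 cells, with Mmp12 among its leading genes, was unnamed and so outside the macrophage-like class. The Border of Tumor 2 then had 84 macrophage-like cells, against 139 in the main clustering. Nos2 and Ido1 are given as counts only, and depth was not tested as a cause.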

Other observations

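Nos2 was found in 6 of 44 endothelial-like cells (13.6%), with 10 UMIs, 8 of them in 4 of the 10 such cells of Tumor 1, a class with Cdh5 in 81.8% of cells. This gene and class were singled out after their values were seen.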
